A study of Mus musculus with 7 samples.

Results

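The NF-kB pathway and target genes described here are 34 listed mouse genes, found by gene symbol among the 51789 Ensembl genes of the deposited count table. Each of the 34 had exactly 1 row. The list holds the NF-kB subunits, their inhibitors and kinases, adaptors, and target genes other than chemokines. The libraries came from cells labelled granulocytes, the leukocyte class of neutrophils, eosinophils and basophils, with intact Alox15, a lipoxygenase gene (wild type, n = 4), or with Alox15 knocked out (knockout, n = 3). All were labelled untreated and were sequenced as 3′ tags of polyA RNA. The sources used here give no tissue of origin, sorting, age or strain, and do not say which piece of Alox15 was removed. Separate animals are not stated for the replicates, so a p-value covers only library-to-library spread, some of which may be technical. The title of the series concerns ferroptosis of neutrophils in tumours.

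NF-kB is a family of dimeric transcription factors that is held in the cytoplasm by IkB proteins. Signals from cytokine, Toll-like and antigen receptors activate the IkB kinase complex, IkB is phosphorylated and degraded, and the freed dimers enter the nucleus and bind kB sites. Many targets are inhibitors of the pathway itself, such as Nfkbia and Tnfaip3, so the pathway is written into its own output. In neutrophils it is known for driving cytokine, adhesion and survival genes after activation.

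Promoters were looked up because members moved together between libraries, as described below. RefSeq promoter windows (GRCm38.p6, 250 bases before to 50 after the start of a gene) were in hand for 26 of the 34 members. The 10-base NF-kB consensus, searched on both strands, was found in 11 of these 26, or 42.3%, against 5.14% of the 27025 genes with such a window. The list was made of pathway and target genes of NF-kB, so a higher share was to be found whatever the libraries held. Why members moved together was not tested by this search. The windows on the gene's own strand, 5′ to 3′, are shown for the 9 members that held a match and also followed the mature neutrophil score below. In all, 19 members with a window followed the score, so a match was found in 9 of 19. It was found in 1 of the 6 other tested members with a window, and the difference was not tested. Capitals mark the match. The consensus reads on the gene's own strand for Nfkbie and Nfkb2 and on the opposite strand for the other 7. Overlapping matches were counted, and the one nearest before the start is shown. Bcl3 had a single match, which begins 2 bases after the start.
Nfkbia, chr12:55492657-55492686, minus strand, 29 bases before the start: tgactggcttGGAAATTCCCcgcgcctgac
Nfkbie, chr17:45555584-45555613, plus strand, 106 bases before the start: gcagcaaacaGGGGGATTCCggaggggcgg
Nfkbid, chr7:30422215-30422244, plus strand, 181 bases before the start: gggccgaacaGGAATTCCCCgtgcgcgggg
Bcl3, chr7:19822734-19822763, minus strand: tcggcggcagGGGAAGTCCCgctgcccggc
Nfkb2, chr19:46304716-46304745, plus strand, 11 bases before the start: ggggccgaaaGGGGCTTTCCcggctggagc
Rel, chr11:23771041-23771070, minus strand, 91 bases before the start: gtaagcagcgGGAAATCCCCccccctcccc
Tnfaip3, chr10:19015403-19015432, minus strand, 12 bases before the start: aatttccatcGGAAATCCCCctgttggcaa
Tnip1, chr11:54962977-54963006, minus strand, 56 bases before the start: ccatcatgggGGAATTCCCCtcctgcctca
Ier3, chr17:35821611-35821640, plus strand, 92 bases before the start: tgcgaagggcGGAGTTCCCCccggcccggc

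Nfkbia was the member with the most counts, and its proximal promoter of 250 bases (chr12:55492648-55492897, minus strand, match in capitals) is given whole.
Nfkbia promoter: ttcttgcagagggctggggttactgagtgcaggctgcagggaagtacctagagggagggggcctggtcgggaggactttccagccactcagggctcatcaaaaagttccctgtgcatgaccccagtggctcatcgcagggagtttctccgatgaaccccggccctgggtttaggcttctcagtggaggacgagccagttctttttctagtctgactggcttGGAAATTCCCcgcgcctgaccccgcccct
The other 2 members with a match were Sod2, which did not pass the test against the score, and Il6, which had too few counts to be tested. A match describes letters in the window and is not evidence of binding.

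The libraries held 3228292 to 5657192 counts, and a gene with 0 counts could still have up to 3, or 0.530 to 0.929 CPM (counts scaled to the size of the library). All other CPM values are scaled by edgeR's TMM factors. Alox15 had 0 counts in all libraries but knockout 1, which had 1, so it does not check the labels. The 18 mature neutrophil markers, among them S100a8, Cxcr2 and Csf3r, summed to 32798, 2980.0, 12883 and 14274 CPM in wild type 1 to 4 and to 26174, 16882 and 2338 CPM in knockout 1 to 3. Wild type 2 and knockout 3 therefore stood apart from the other 5 libraries. In these 2 the T and NK cell markers summed to 691 and 983 CPM, against 339 to 669.6 CPM elsewhere, where wild type 4 was close to wild type 2. The T cell gene Cd3d stood at 202 and 441 CPM in the 2 libraries and at 93.5 to 212 CPM in the others, and the NK cell gene Ncr1 had 0 counts in all. The 7 eosinophil markers summed to 2.92 to 33.8 CPM, with Epx at 0 counts in all 7 libraries and Ear2 and Siglecf reaching 14.0 and 11.4 CPM in wild type 1. The 7 basophil and mast cell markers summed to 6.04 to 25.1 CPM, with 5 of them, Mcpt8 among these, at 0 in all libraries and Cpa3 reaching 24.7 CPM. Neutrophil markers were thus by far the most abundant of the granulocyte markers. Knockouts 2 and 3 had another stem in their sample descriptions than the other 5 libraries. They also had Xist at 382 and 102 CPM, against 0.896 to 6.11 CPM elsewhere, so description stem, sex and part of the genotype contrast cannot be told apart.

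In the comparison of knockout with wild type, which asks what differs in granulocytes without Alox15, no NF-kB gene passed the test. Of the 34 members 33 had enough counts to be tested, and 0 rose and 0 fell in knockout, where 0.00% of the 12506 genes tested rose and 0.00% fell. The call was an adjusted p under 0.05 in edgeR's quasi-likelihood test, over all genes. At an unadjusted p under 0.05 there were 0 members and 1.23% of all genes, and the smallest member p was 0.334, for the kinase gene Ikbkb. DESeq2 and limma-voom also called 0 members, with 0 at an unadjusted p under 0.05 in each. No member had groups that did not overlap, against 1.57% of genes with all knockouts above wild type and 1.57% with all below. Log2 fold changes of single members, given below as knockout minus wild type with their standard errors, ran from -0.64 to 0.34. They were below 0 for 22 of 33 members, where 48.6% of all genes were below 0, and the median was -0.13 against 0.01 over all genes.

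This lean of the members toward lower values was not stable in direction. The median was 0.37 without wild type 1, with 5 of 33 members below 0, and 0.11 without knockout 3, with 12 below 0. It was -0.53 without knockout 1, with 28 below 0, and 0.43 with the description stem as a covariate, which sets knockout 1 against wild type, with 4 below 0. Limma-voom, which weights libraries by quality, gave a median of 0.35. Beside these values, monocyte and macrophage markers summed to 183 to 534 CPM in wild type and to 1326, 649 and 211 CPM in knockout 1 to 3, and their part in the fold changes was not tested.

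**Figure D1:**
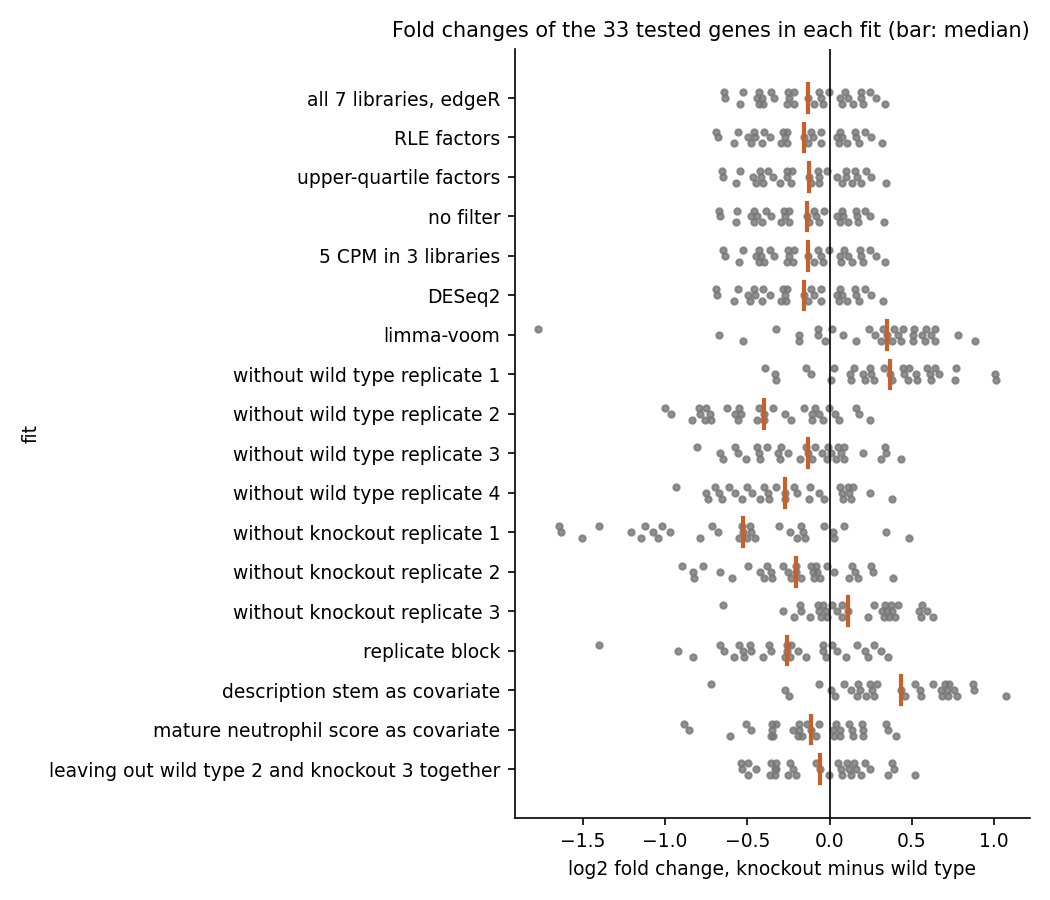
Log2 fold changes (x axis, knockout minus wild type) of the 33 tested NF-kB genes (grey points) in each fit (y axis), with the median as a bar. The median lies at -0.13 in the fit of all 7 libraries, at -0.53 without knockout 1 and at 0.43 with the description stem as a covariate.

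The members varied far more between libraries than between genotypes, and most of them rose with the mature neutrophil markers of the library. A mature neutrophil score, the mean log2 CPM of the 18 markers, was 8.54, 5.07, 7.20 and 7.13 in wild type 1 to 4 and 8.16, 7.82 and 4.66 in knockout 1 to 3. A slope on this score, the log2 change of a gene for each log2 unit of score with genotype held, was fitted for all genes in edgeR. Of the 33 tested members 23 rose with the score and 0 fell, where 10.6% of the 12488 genes tested rose and 1.09% fell. The median slope was 0.63 over the members and -0.00 over all genes. Markers of other cells moved with the same libraries. Monocyte and macrophage markers summed to 183 and 211 CPM in wild type 2 and knockout 3 and to 459 to 1326 CPM in the others, and eosinophil markers to 3.13 and 2.92 CPM against 11.1 to 33.8 CPM. Their part in the slopes was not tested. Fewer neutrophils and less of these transcripts in each neutrophil cannot be told apart in bulk RNA.

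The calls depended on wild type 2 and knockout 3. Both were the lowest 2 of the 7 libraries for 23 of 33 members, against 16.1% of all genes, and the highest 2 for 1 member, Traf2, against 6.25%. Without both, 0 members passed in edgeR, and 35 of 12338 genes, or 0.284%, rose in that fit of 5 libraries. Still, 20 of 33 members had an unadjusted p under 0.05, against 13.6% of all genes, and 31 slopes were above 0 with a median of 0.94. Without 1 library at a time, 16 to 22 members passed, where 5.34% to 10.7% of all genes rose. The lowest count was without wild type 1, where 5.66% of all genes rose. At the other end, wild type 1 was the highest library for 22 of 33 members, against 20.1% of all genes.

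**Figure D2:**
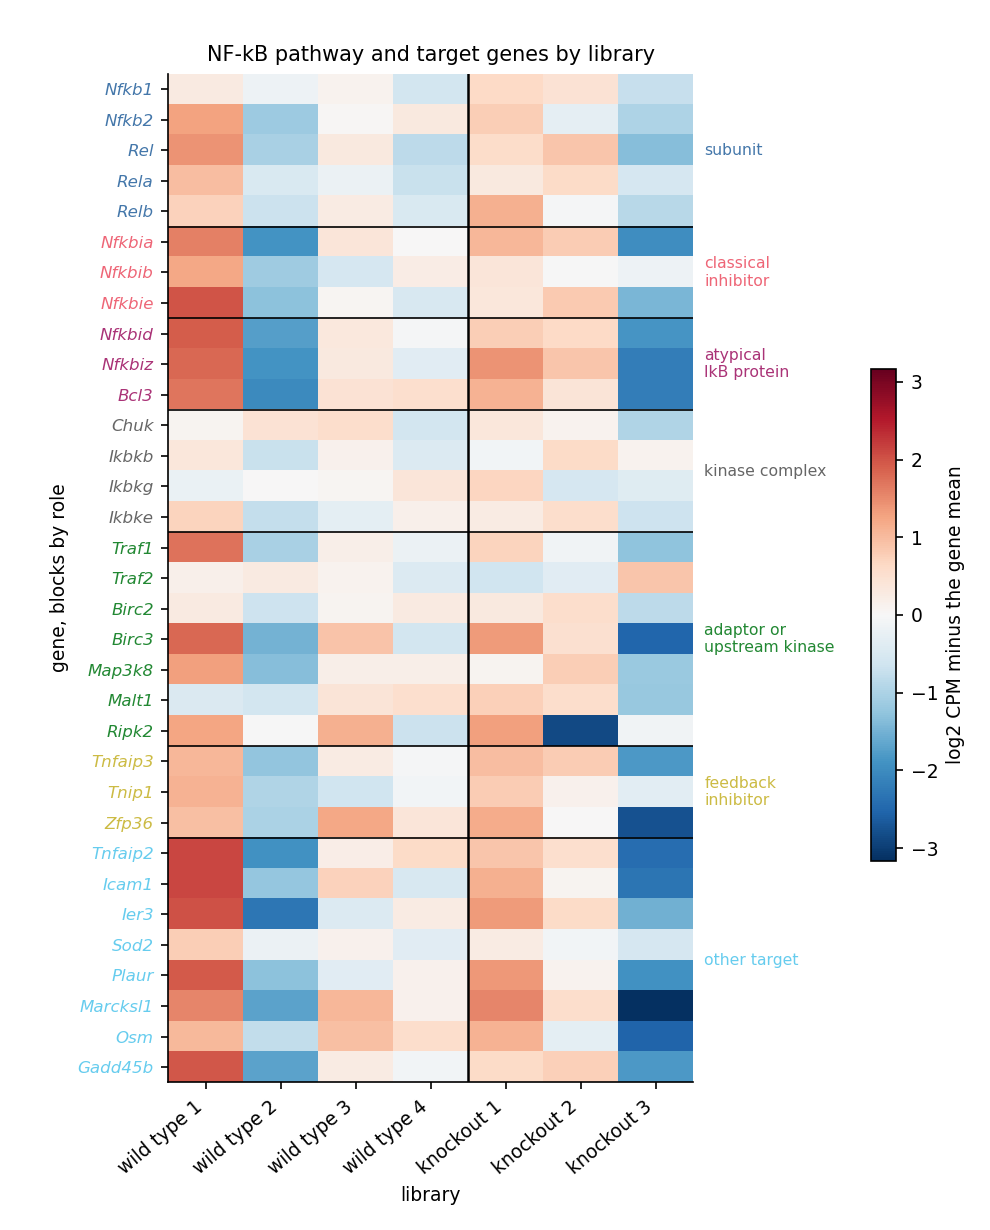
Log2 CPM of each of the 33 tested genes (rows, in blocks by role) in the 7 libraries (columns), after the mean of the gene was subtracted. Wild type 2 and knockout 3 are blue and wild type 1 is red for most genes. The rows of Chuk, Ikbkb, Ikbkg, Traf2, Malt1 and Ripk2 are among those that depart from this pattern.

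The subunits of NF-kB, which form the DNA-binding dimers, were all detected. Of the 5, 4 rose with the neutrophil score and none passed between genotypes. Rel, which encodes c-Rel, stood at 128, 23.2, 58.6 and 26.7 CPM in wild type 1 to 4 and at 71.2, 87.3 and 18.5 CPM in knockout 1 to 3. Wild type 1 was the highest and knockout 3 the lowest, and the groups overlapped. Its log2 fold change was -0.00 ± 0.69 (SE) and its slope 0.66 ± 0.12 (SE, edgeR adjusted p = 0.00221). Nfkb2, which encodes the p100 precursor of the non-canonical pathway, stood at 89.9, 16.4, 38.1 and 45.5 CPM in wild type and at 63.96, 30.02 and 18.5 CPM in knockout. The same libraries were low, and its slope was 0.54 ± 0.11 (edgeR adjusted p = 0.00654).

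Relb, the partner of the processed p100 product, stood at 36.2, 13.3, 25.8 and 15.4 CPM in wild type and at 47.6, 21.1 and 11.5 CPM in knockout. Here knockout 1 was the highest, and wild type 4 was close to the lowest pair. The slope of Relb was 0.45 ± 0.13 (edgeR adjusted p = 0.0421). Rela, the p65 subunit with the main transactivation domain, stood at 195, 71.1, 87.4 and 60.4 CPM in wild type and at 122, 151 and 68.7 CPM in knockout. Wild type 4 was its lowest library, and its slope of 0.34 ± 0.10 passed narrowly (edgeR adjusted p = 0.0471). Nfkb1, which encodes the p105 precursor of p50, stood at 82.2, 59.8, 71.9 and 44.7 CPM in wild type and at 104, 91.9 and 39.9 CPM in knockout. It spanned 2.61-fold over the 7 libraries, and its slope of 0.26 ± 0.10 did not pass (edgeR adjusted p = 0.131). The fold changes of Nfkb1, Relb, Rela and Nfkb2 between genotypes were 0.28 ± 0.37, 0.24 ± 0.54, 0.14 ± 0.45 and -0.34 ± 0.59 on the log2 scale.

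Of the classical inhibitors, which hold NF-kB in the cytoplasm, Nfkbia and Nfkbie rose with the score and Nfkbib did not pass. Nfkbia (IkB alpha), with the kB match shown above, stood at 11739.5, 1041, 5022 and 3869.6 CPM in wild type and at 7923, 6766 and 988 CPM in knockout. Its 2 lowest libraries were one of each genotype, and the group means of 5418 ± 4534 CPM (SD, n = 4) and 5225 ± 3715 CPM (SD, n = 3) differed by far less than the spread. The slope was 0.93 ± 0.10 (edgeR adjusted p = 7.13e-05). Nfkbie (IkB epsilon) stood at 112, 11.1, 29.0 and 19.3 CPM in wild type and at 35.96, 49.6 and 9.93 CPM in knockout. Wild type 1 lay above all others, and the slope was 0.78 ± 0.14 (edgeR adjusted p = 0.00163). Nfkbib (IkB beta) stood at 94.1, 18.2, 27.8 and 47.4 CPM in wild type and at 52.5, 39.8 and 35.6 CPM in knockout. Knockout 3 was not among the 2 lowest libraries for this gene, and the slope of 0.36 ± 0.13 did not pass (edgeR adjusted p = 0.0943). Their log2 fold changes between genotypes were -0.05 ± 0.85 for Nfkbia, -0.43 ± 0.82 for Nfkbie and -0.13 ± 0.51 for Nfkbib.

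**Figure D3:**
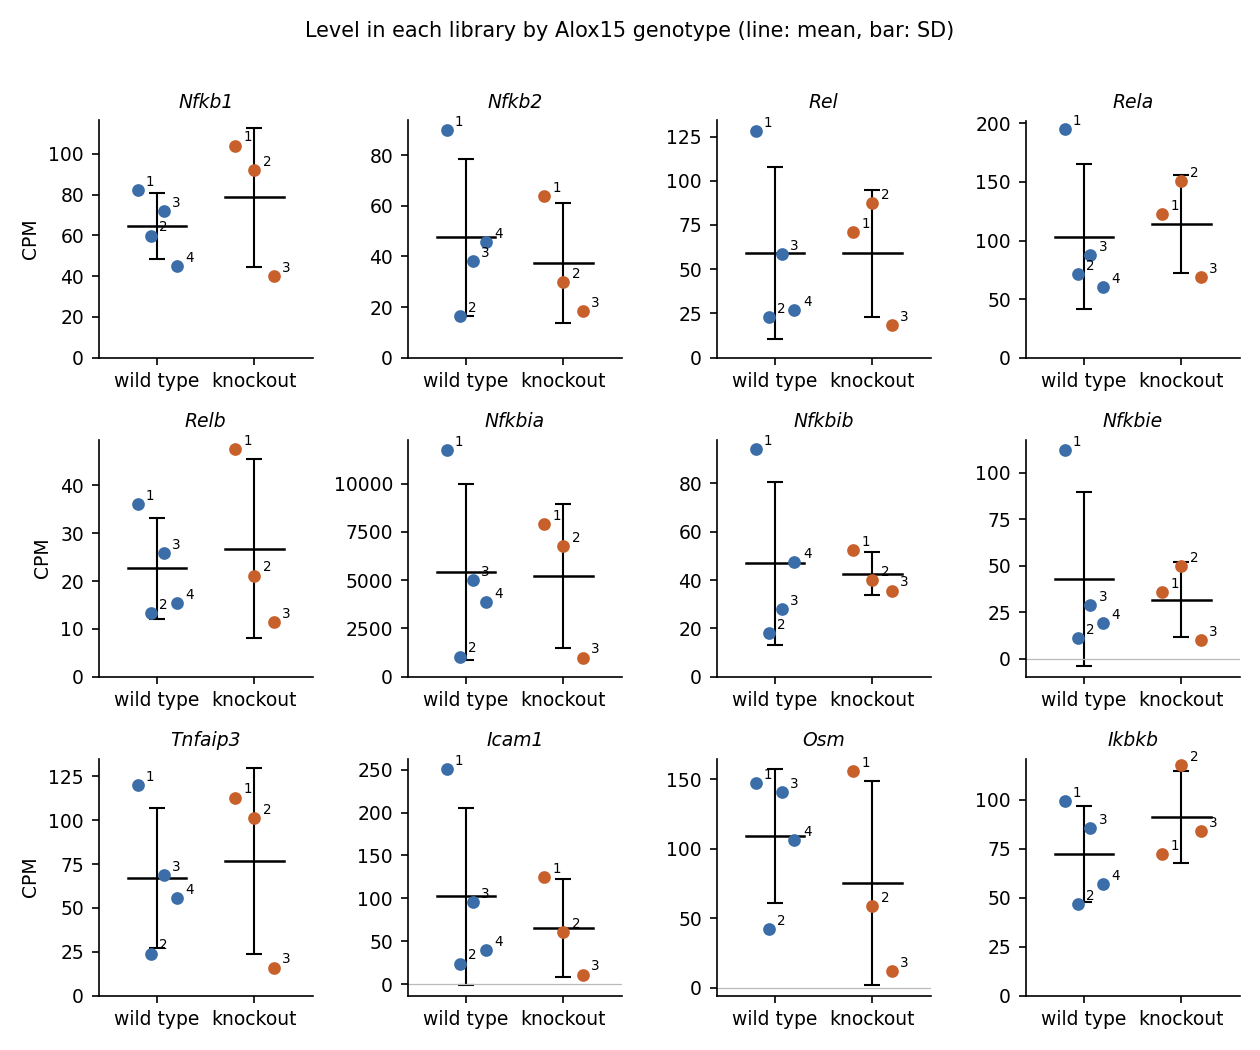
CPM (y axis, linear) of 12 genes in each library by genotype (x axis), with points numbered by replicate, the mean as a line and the SD as a bar. The groups overlap in every panel, and for Nfkbia wild type 2 (1041 CPM) and knockout 3 (988 CPM) are the lowest of their groups.

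The 3 atypical IkB proteins, which act in the nucleus on promoter-bound dimers, all rose with the score, with slopes close to 1, the value of a gene that doubles with each doubling of the markers. Nfkbiz (IkB zeta), needed for a set of secondary response genes, stood at 839, 63.9, 292 and 185 CPM in wild type and at 632, 436 and 51.4 CPM in knockout. Nfkbid (IkB NS) stood at 410.3, 31.8, 136 and 106 CPM in wild type and at 187, 169 and 29.2 CPM in knockout. Bcl3, a coactivator with p50 and p52, stood at 37.9, 2.51, 15.7 and 16.7 CPM in wild type and at 24.9, 15.3 and 2.14 CPM in knockout. All 3 spanned 14.04-fold to 17.7-fold over the libraries, with wild type 1 the highest and knockout 3 the lowest. The slopes were 1.03 ± 0.10 for Nfkbiz, 0.91 ± 0.10 for Nfkbid and 1.04 ± 0.16 for Bcl3 (edgeR adjusted p = 6.89e-05, 6.89e-05 and 0.000645). Between genotypes the log2 fold changes were 0.11 ± 0.92, -0.41 ± 0.84 and -0.36 ± 0.92.

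Of the 4 genes grouped under the kinase complex, with the related kinase gene Ikbke among them, 0 passed on the score. They spanned 2.40-fold to 2.91-fold over the 7 libraries, where the median of all genes was 3.10-fold. Ikbkb, the kinase IKK beta of the canonical pathway, stood at 99.5, 46.8, 85.6 and 57.2 CPM in wild type and at 72.5, 118 and 84.1 CPM in knockout. Knockout 3 was the middle one of the 7 libraries, and the slope was 0.16 ± 0.10 (edgeR adjusted p = 0.360). Its log2 fold change of 0.34 ± 0.33 was the most positive of the members, with the groups overlapping. Chuk, which encodes IKK alpha, stood at 48.1, 62.3, 67.3 and 30.4 CPM in wild type and at 58.7, 49.01 and 23.2 CPM in knockout, and wild type 2 was here the second highest library. Its slope was 0.13 ± 0.13. Ikbkg, the regulatory subunit NEMO, lay between 10.5 and 15.9 CPM in wild type and between 8.27 and 19.8 CPM in knockout, with a slope of 0.10 ± 0.17. Ikbke, an IKK-related kinase of the interferon response, lay between 14.4 and 40.04 CPM in wild type and between 15.4 and 36.1 CPM in knockout. Its slope of 0.36 ± 0.12 did not pass (edgeR adjusted p = 0.0629), and wild type 2 and knockout 3 were its lowest libraries. Whether the slopes of the kinases differ from those of the inhibitors was not tested.

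**Figure D4:**
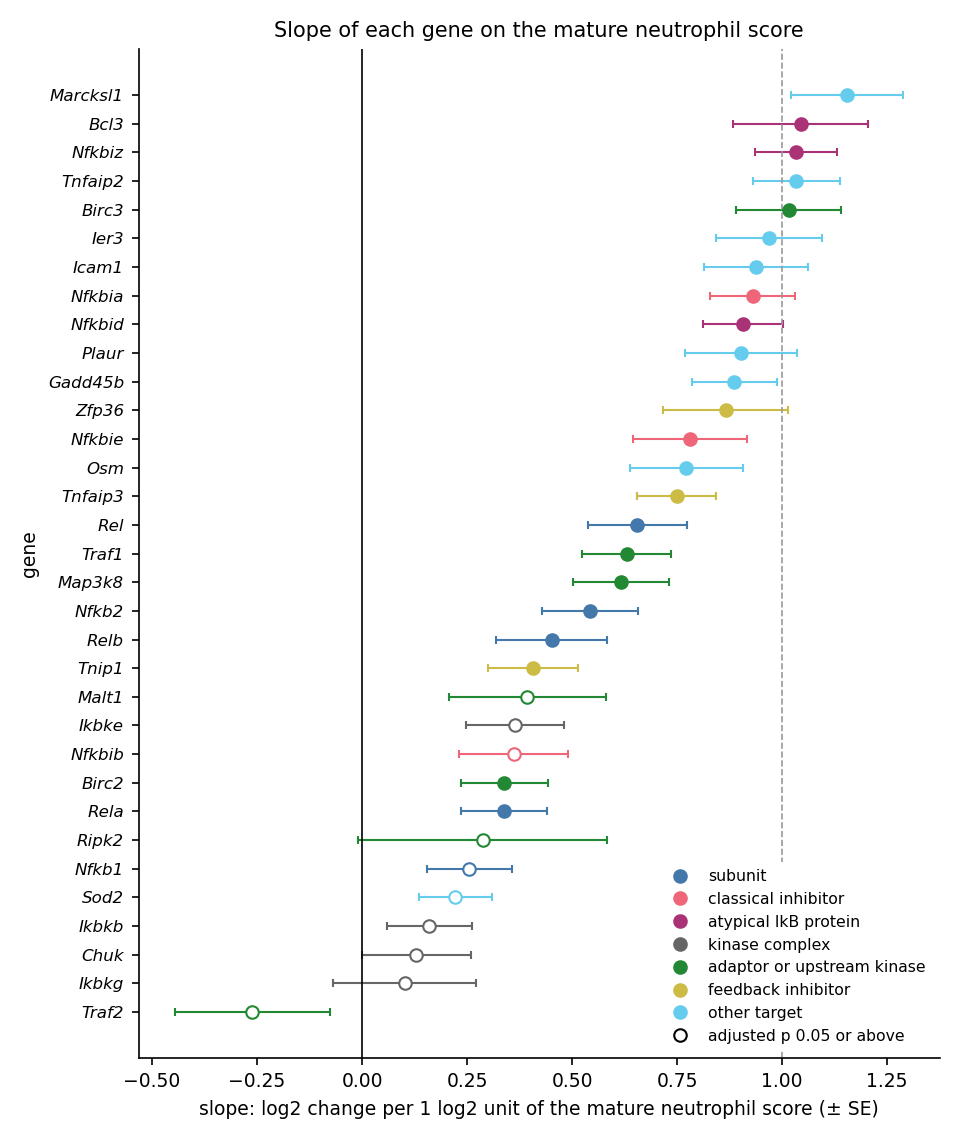
Slope on the mature neutrophil score (x axis, log2 units per log2 unit, bars SE) for each of the 33 tested genes (y axis), coloured by role. Filled points had an edgeR adjusted p under 0.05 and the dashed line marks a slope of 1. Marcksl1 (1.16) is at the top, the kinase genes Ikbkb, Chuk and Ikbkg lie between 0.10 and 0.16, and Traf2 is the only gene below 0 (-0.26).

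Among the adaptors and upstream kinases, Birc3, Traf1, Map3k8 and Birc2 rose with the score and Malt1, Ripk2 and Traf2 did not pass. Birc3 (cIAP2), a ubiquitin ligase of TNF receptor complexes and itself an NF-kB target, stood at 252, 25.1, 134 and 47.7 CPM in wild type and at 183, 101 and 12.1 CPM in knockout. Its slope was 1.02 ± 0.13 (edgeR adjusted p = 0.000142). Birc2 (cIAP1), the neighbouring paralog on chromosome 9, stood at 48.4, 25.1, 42.5 and 48.7 CPM in wild type and at 49.2, 58.5 and 22.2 CPM in knockout. It spanned 2.64-fold where Birc3 spanned 20.9-fold, and its slope of 0.34 ± 0.10 was at the threshold (edgeR adjusted p = 0.0499). Reads shared by the 2 paralogs could be split between them, which the sources used here do not describe.

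Traf1, an inducible adaptor of TNF receptors, stood at 230.4, 34.5, 80.1 and 61.4 CPM in wild type and at 115, 64.6 and 28.6 CPM in knockout. Map3k8 (TPL2), the kinase released from p105, stood at 98.01, 15.2, 45.1 and 44.7 CPM in wild type and at 41.99, 68.6 and 17.3 CPM in knockout. In both genes wild type 2 and knockout 3 were the lowest, and the slopes were 0.63 ± 0.11 for Traf1 and 0.62 ± 0.11 for Map3k8 (edgeR adjusted p = 0.00136 and 0.00259). Traf2, the constitutive adaptor, was the only member with a slope below 0 (-0.26 ± 0.18, edgeR adjusted p = 0.425), and it stood at 8.96, 9.87, 8.74 and 5.82 CPM in wild type and at 5.05, 6.13 and 15 CPM in knockout. Its 2 highest libraries were wild type 2 and knockout 3. Malt1, the protease of the antigen receptor complex, stood at 10.2, 9.24, 18.7 and 20.7 CPM in wild type and at 24.1, 20.8 and 5.84 CPM in knockout (slope 0.39 ± 0.19), with wild type 1 among its 3 lowest libraries. Ripk2, the kinase downstream of NOD receptors, lay between 2.91 and 12.3 CPM in wild type and between 0.306 CPM, a single count in knockout 2, and 12.6 CPM in knockout (slope 0.29 ± 0.30). Between genotypes Traf1 had a log2 fold change of -0.55 ± 0.68 and Malt1 one of 0.20 ± 0.55, and none of the 7 genes passed.

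All 3 feedback inhibitors rose with the score. Tnfaip3 (A20), the ubiquitin editing enzyme that ends NF-kB signalling, stood at 120.1, 23.96, 68.7 and 55.6 CPM in wild type and at 113, 101 and 15.97 CPM in knockout. Its partner Tnip1 stood at 169.7, 40.6, 51.1 and 74.9 CPM in wild type and at 138, 86.7 and 62.3 CPM in knockout. Zfp36 (tristetraprolin), which speeds decay of cytokine mRNAs, stood at 576, 148, 697 and 387 CPM in wild type and at 665, 299.9 and 43.4 CPM in knockout. Wild type 3 was the highest library for Zfp36, and knockout 3 was not among the 2 lowest for Tnip1. The slopes were 0.75 ± 0.09, 0.41 ± 0.11 and 0.87 ± 0.15 (edgeR adjusted p = 0.000156, 0.0240 and 0.00165), and the log2 fold changes between genotypes 0.19 ± 0.68, 0.19 ± 0.50 and -0.43 ± 0.80.

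Of the 8 other targets that were tested, 7 rose with the score. All 8 fold changes between genotypes were below 0 without passing, where 48.6% of all genes were below 0. This direction was not stable. Without wild type 1, all of them but Osm were above 0. With the description stem as a covariate, all but Gadd45b were above 0. Tnfaip2, a TNF-inducible gene, stood at 5181, 318, 1384 and 1816 CPM in wild type and at 2220.3, 1736 and 227 CPM in knockout. Icam1, the adhesion ligand of leukocyte integrins, stood at 250.4, 24.1, 95.7 and 39.98 CPM in wild type and at 125, 61.3 and 11.3 CPM in knockout. Osm, the cytokine oncostatin M, stood at 147, 42.3, 141 and 106 CPM in wild type and at 156, 58.5 and 12.1 CPM in knockout. These 3 had log2 fold changes of -0.64 ± 0.94, -0.64 ± 0.91 and -0.53 ± 0.74, and for each of them the knockout range began below and ended within or just above the wild-type range. Their slopes were 1.03 ± 0.10, 0.94 ± 0.12 and 0.77 ± 0.14 (edgeR adjusted p = 6.89e-05, 0.000221 and 0.00174).

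Ier3, an early response gene, stood at 2752, 139, 506 and 809.9 CPM in wild type and at 1737, 1042 and 239 CPM in knockout. Gadd45b, a stress-inducible regulator of MAP kinase signalling, stood at 559.7, 44.3, 171 and 135 CPM in wild type and at 217, 244 and 40.3 CPM in knockout. Plaur, the urokinase receptor, stood at 93.5, 9.40, 18.5 and 26.5 CPM in wild type and at 62.8, 26.04 and 6.04 CPM in knockout. In these 3 genes wild type 1 was the highest, and wild type 2 and knockout 3 were the lowest. Marcksl1, an actin-binding protein gene, had the steepest slope of the members and stood at 165, 17.1, 116 and 61.95 CPM in wild type and at 165, 82.1 and 5.84 CPM in knockout. The slopes were 0.97 ± 0.13, 0.89 ± 0.10, 0.90 ± 0.13 and 1.16 ± 0.13 (edgeR adjusted p = 0.000197, 9.13e-05, 0.000490 and 9.52e-05). Sod2, the mitochondrial superoxide dismutase, lay between 87.1 and 192 CPM in wild type and between 77.3 and 134 CPM in knockout, and its slope of 0.22 ± 0.09 did not pass (edgeR adjusted p = 0.129). Il6 had 1 count in wild type 2 and 0 in the other 6 libraries, at or under the limit of 3 counts in each, so no fold is given.

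The slopes can also be read as a ratio to the neutrophil markers of the same library, which restates the same data and was chosen after the values were seen. A gene with a slope near 1 must narrow on this scale and a flat gene must widen. S100a8 and S100a9 made up most of the marker sum in every library, at 10487 and 11610 of 32798 CPM in wild type 1. The ratio is therefore largely a ratio to these 2 genes. For each 100 CPM of summed mature neutrophil markers there were 35.8, 34.9, 39.0 and 27.1 CPM of Nfkbia in wild type 1 to 4 and 30.3, 40.1 and 42.2 CPM in knockout 1 to 3. Its ratio spanned 1.56-fold where its CPM spanned 11.9-fold, and wild type 2 and knockout 3 lay within or just above the range of the others. The ratio of Bcl3 spanned 1.45-fold, from 0.0841 to 0.122 CPM per 100, against 17.7-fold in CPM. For 19 of the 33 members the ratio spanned less than the CPM, against 11.5% of the 11281 genes with counts in every library. For Chuk, Ikbkb and Ikbkg the ratio spanned 14.3-fold, 12.99-fold and 12.9-fold, against 2.91-fold, 2.51-fold and 2.40-fold in CPM.

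**Figure D5:**
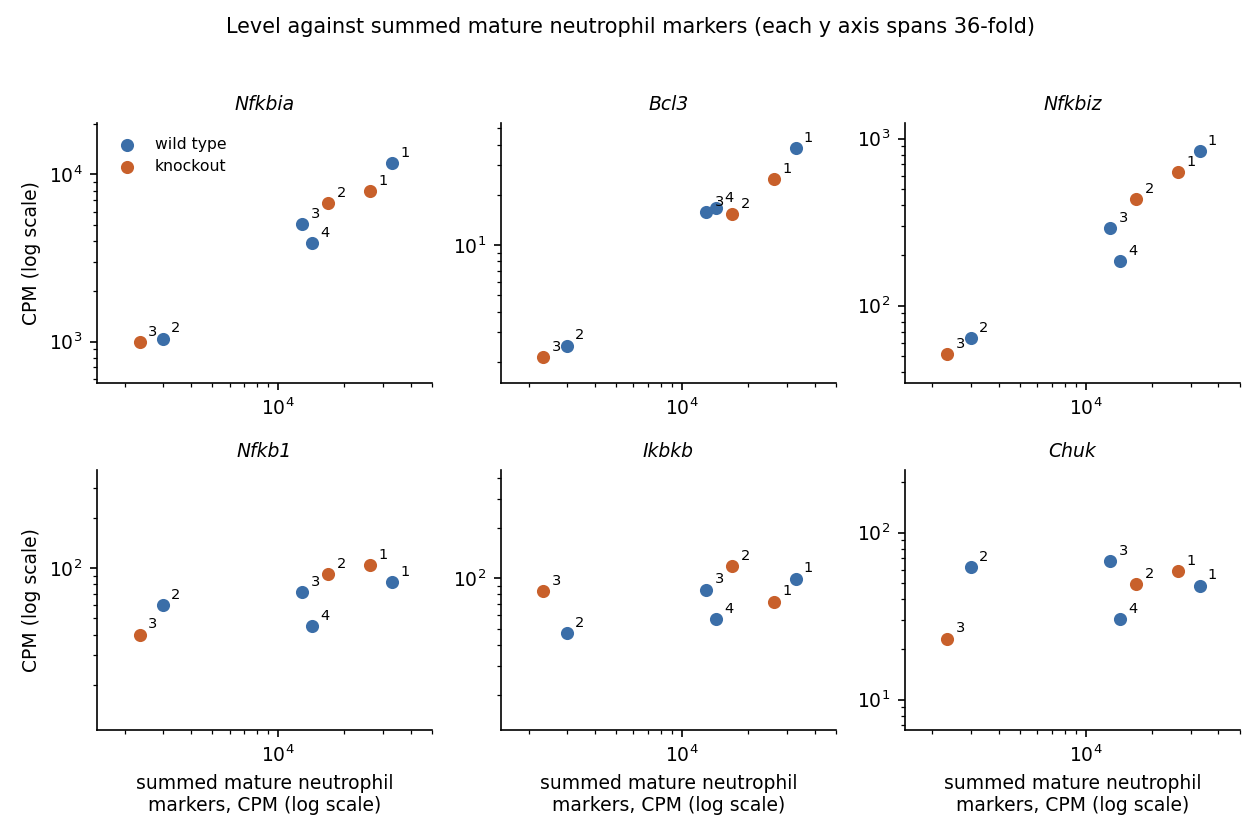
CPM of 6 genes (y axes, log scale) against the summed CPM of 18 mature neutrophil markers (x axes, log scale) in each library, numbered by replicate. Nfkbia, Bcl3 and Nfkbiz climb with the markers in both genotypes, and Ikbkb and Chuk stay within 3-fold while the markers span 14.03-fold.

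With the mature neutrophil score as a covariate, 0 members passed between genotypes in edgeR, and 2 of 33 had an unadjusted p under 0.05, as had 388 of all 12506 genes. They were Osm, with a log2 fold change of -0.89 ± 0.34 (unadjusted p = 0.0211 in edgeR), and Zfp36, with -0.86 ± 0.36 (unadjusted p = 0.0327 in edgeR), both with an adjusted p of 0.999974. In the fit without wild type 2 and knockout 3, which had no score term, their values were -0.33 ± 0.43 and -0.24 ± 0.45. The like values with all 7 libraries and no score term were -0.53 ± 0.74 and -0.43 ± 0.80. Also without a score term, Osm and Zfp36 were at 0.52 and 0.56 with the description stem as a covariate. Without knockout 3 they were at -0.07 and 0.05, so their direction was not stable.

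Other genes of the pathway were counted from longer lists. The background is again 10.6% of all genes rising and 1.09% falling with the score. Of 30 further signalling genes tested of 30 listed, 8 rose with the score and 0 fell, with a median slope of 0.25, and 0 passed between genotypes. Of 40 further target genes 35 were tested, 23 rose with the score and 0 fell, with a median slope of 0.76, and 0 passed between genotypes. The smallest slope p among them belonged to Nlrp3, the inflammasome sensor, Clec4e, the receptor Mincle, Il1b and the siderophore-binding protein gene Lcn2, with slopes of 1.02 ± 0.09, 0.89 ± 0.09, 0.92 ± 0.10 and 0.99 ± 0.11 (edgeR adjusted p = 6.89e-05 for the first 3 and 7.13e-05 for Lcn2). Il1b stood at 11012, 1060.4, 3628 and 3927 CPM in wild type and at 7013, 4872 and 768 CPM in knockout, with the same 2 libraries low as for Nfkbia. On the other side were Tab1, Rbck1, Map3k7 and Otulin, with slopes of -0.34 ± 0.20, -0.12 ± 0.08, -0.07 ± 0.10 and -0.01 ± 0.12, none of which passed. They are parts of the TAK1 and linear ubiquitin machinery, of which Tab2, Tab3, Rnf31 and Sharpin had slopes above 0. Those slopes were 0.29 ± 0.12, 0.21 ± 0.24, 0.24 ± 0.14 and 0.06 ± 0.12, and none passed.

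Between genotypes, the further genes with a mean of at least 10 CPM and the smallest unadjusted p on the knockout side were Traf3, Cflar, Map3k14 and Tab2, with log2 fold changes of 0.30 ± 0.32, 0.37 ± 0.43, 0.40 ± 0.51 and 0.33 ± 0.45. Under that level, Cd40 and Traf5 had smaller unadjusted p-values in edgeR on this side (0.216 and 0.240), as Ticam1 had on the other (0.120). At 10 CPM or more, on the wild-type side were Tnip2, an A20-binding inhibitor, with -0.65 ± 0.40, the kinase gene Pim1 with -1.03 ± 0.77, the deubiquitinase gene Cyld with -0.34 ± 0.30 and the interleukin-1 receptor kinase Irak2 with -1.06 ± 0.95. Tnip2 stood at 41.8, 14.3, 38.5 and 33.1 CPM in wild type and at 21.00, 19.9 and 19.9 CPM in knockout, where wild type 2 lay below all knockouts. The smallest adjusted p over these lists was 0.999948 in edgeR.

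Wild type 3 and wild type 4 had almost the same mature neutrophil score (7.20 and 7.13), yet many genes differed between them. Single markers of the score also differed, with S100a8 and Cxcr2 higher in wild type 4 and Il1r2 higher in wild type 3. This pair was picked after the values were seen and holds 1 library on each side, so there is no replicate check and no test. Of the 33 tested members, 12 were lower in wild type 4 by at least 1.5-fold, against 24.8% of all genes. Another 2 were higher by as much, against 23.1%. Taken both ways, members differed no more often than all genes did, and those that differed were mostly lower in wild type 4. The lower ones included Birc3 (134 CPM in wild type 3 and 47.7 CPM in wild type 4), Icam1 (95.7 and 39.98 CPM), Rel (58.6 and 26.7 CPM) and Zfp36 (697 and 387 CPM). The 2 higher ones were Ier3 (506 and 809.9 CPM) and Nfkbib (27.8 and 47.4 CPM). Of the 35 further targets tested, 13 were lower and 4 higher in wild type 4 by as much, against the same shares of all genes. Of the 30 further signalling genes, 13 were lower and 3 higher. Among the further genes, singled out after their values were seen, Ptgs2, which encodes cyclooxygenase 2, went from 676 to 198 CPM. Csf1, the macrophage growth factor, went from 592 to 274 CPM. Irak2 and Junb lay on the other side, at 60.8 and 206 CPM and at 1305 and 2518 CPM.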

How the data were processed

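The authors deposited 1 table of raw counts per Ensembl mouse gene for 7 libraries. Per the labels' protocols, RNA was column-purified, treated with DNase and made into QuantSeq 3′ tag libraries. The submitters' processing notes name RSEM 1.2.3, DESeq2 and mm10 without a role, so the counts may be rounded estimates. Annotation release, strand setting and handling of shared reads: not given in the sources used here. 51596 of 51789 genes matched a symbol (GENCODE M21).

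Groups came from the labels. Genes were tested with edgeR 4.0.16 in R 4.3.3 (filterByExpr, TMM, robust quasi-likelihood F test, Benjamini-Hochberg over all genes, calls at 0.05), which kept 12506 genes with 99.6% of counts. Log2 CPM carries a prior count of 2. A log2 fold change of a low gene depends on that prior, and the limits given for a count of 0 cover counting error only. The slope fit used genotype and the mature neutrophil score and left the 18 markers out of the adjustment. DESeq2 1.42.0 and limma-voom (limma 3.58.1) were alternatives, with RLE and upper-quartile factors, 2 other filters, each library left out, wild type 2 and knockout 3 left out together, a replicate block, and the description stem or score as a covariate. The block in the slope fit and the ratio to neutrophil markers were added after seeing the data. The tests were also run on simulated counts, with the outcome not given here. For the slope test these counts had less spread than was estimated within genotypes, so they do not check that test at the full spread.

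The members, lists and tests were chosen with earlier results of these data known. Named genes followed a rule: subunits, classical inhibitors, members that passed a test or had the 4 largest values per direction at a mean of 10 CPM, and the further genes with the smallest p at the same mean level, up to 4 per direction. Chuk and Traf2 are printed in full outside this rule, and the remaining members are given by their range.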

Additional observations from a re-analysis of the deposited data

How the results depend on the processing

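Between genotypes, 0 members and 0 further pathway genes passed under all 17 alternatives run. Over all genes the count was 0 throughout except in DESeq2, which called 1 gene, a pseudogene outside the lists, and it was 0 to 0 when each library was left out. Over the alternatives the smallest adjusted p of a member was 0.893, in limma-voom, and the median log2 fold change of the members ran from -0.53 to 0.43. Only Nfkb1 and Ikbkb kept the sign of their fold change in all 17. The slope count of 23 members was 16 to 22 with 1 library left out, and 19 to 24 with other scalings, filters, scores or covariates. It was 0 without wild type 2 and knockout 3, a fit of 5 libraries in which 0.284% of all genes rose, and 14 with the replicate block. The 23 calls held Rela and Birc2 at adjusted p of 0.0471 and 0.0499. With the replicate block, 0 genes passed between genotypes. The sources used here do not say that replicate numbers pair the libraries. Deviations from the group means correlated at 0.35, -0.22 and -0.18 for same-numbered libraries, across genes, which are not independent replicates. Pairs with unlike numbers ran from -0.48 (wild type 1 and knockout 3) to 0.47 (wild type 2 and knockout 3). With so few pairs these values cannot decide whether the libraries are paired.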
